A study of Mus musculus with 32 samples.

Results

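The transcripts described here encode proteins that remove introns from messenger RNA precursors, or that bind, unwind and carry RNA. They were measured in the livers of mice that differed in calorie intake or were fed candidate mimetics of calorie restriction. The set was chosen by gene symbol: every probe set of the MG-U74Av2 array with a single platform gene symbol that begins with Hnrn, Srsf, Sfrs, Sf3a, Sf3b, Snrp, Prpf, Ddx, Dhx or Rbm, the last 3 followed by a number. This gave 127 probe sets for 91 genes, of 12422 probe sets for 8251 genes on the array without its control probe sets. Measured values played no part in the rule. A pair of matching probe sets that carried several symbols was left out, and 1 of the 127 belonged to a pseudogene.

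All mice were male B6C3F1 hybrids killed at 22 months of age after a 48 h fast, and each of the 8 groups held 4 mice with 1 array each. Control mice (CON) were fed 93 kcal each week. Mice under lifelong restriction (LTCR) had a weekly 52.2 kcal since the age of 5 months, which the labels put at about 40% fewer kcal. Mice under short restriction (CR8) stepped down at 20 months, first to a weekly 77 kcal that lasted 2 weeks, after which their ration was the 52.2 kcal of LTCR over the last 6 weeks. The other 5 groups ate the control diet for 8 weeks with an added agent. It was metformin in MET, glipizide in GLIP, both drugs in GM, rosiglitazone in ROS and an extract of soy isoflavones in SOY. Metformin lowers glucose output by the liver, glipizide stimulates insulin secretion and rosiglitazone activates the nuclear receptor PPAR-gamma. No promoter, transgene or cell sort was involved, and drug doses are not given in the sources used here. In whole liver, fewer cells of a type and less RNA per cell cannot be told apart.

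Introns are removed by the spliceosome, which is built on each transcript from small nuclear ribonucleoprotein particles (snRNPs) and many accessory proteins. SR proteins, encoded by the Srsf genes, mostly bind exons and help recruit the machinery to nearby splice sites, while heterogeneous nuclear ribonucleoproteins (hnRNPs) coat the nascent transcript and often act against that choice. The SF3 complexes recognise the branch point, PRPF proteins belong to the catalytic core and its assembly factors, and DEAD-box and DEAH-box proteins use ATP to remodel RNA and its protein partners. SRSF3 is known to be needed for the maturation and metabolism of hepatocytes, the main cells of liver.

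Values are intensities on a linear scale as deposited. Differences are in log2 units after 27 was added to each intensity, which reduces the differences of dim probe sets. A probe set was tested if its level was above 94.2. This level is the mean of log2(intensity + 27) over the 32 arrays, turned back to an intensity. A tested probe set was said to rise or fall if its adjusted p was under 0.05 (limma, Benjamini-Hochberg over the 7357 probe sets tested). By this filter 101 probe sets for 81 of the 91 genes were tested. Of the 26 that were not, Ddx51 (161060_i_at, level 89.9) lay closest to the limit from below and Rbm25 (97816_at, level 97.07) closest from above. The 10 genes without a tested probe set were Ddx4, Ddx10, Ddx41, Ddx49, Ddx51, Dhx32, Prpf38a, Prpf39, Rbm6 and Rbm22. Probe sets differ in how well they bind their transcript, so the level of one is not compared with that of another.

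Deposited columns had medians of 145 to 170.3, no columns were identical, and correlations between arrays over all tested probe sets were 0.9275 to 0.9768. The median correlation of an array with the others was 0.946 to 0.948 for LTCR 1, LTCR 2 and LTCR 4 and 0.955 to 0.968 for the rest. The control probe set for the 3' end of beta-actin read 1671 to 5438 on these 3 arrays, CR8 3 and MET 3, and 8144 to 14679 elsewhere. That for 18S ribosomal RNA read 173.5 to 365 on the same 5 arrays and 449 to 1072 elsewhere. The summed intensity of 5 hepatocyte genes was 93546 to 107410 on the CON arrays and 116150 to 147000 on the LTCR arrays. By a rule on 10 skeletal muscle genes, CON 3, CR8 1, CR8 2 and ROS 4 carried muscle transcripts. Their summed intensity was 11411 to 24071 on these 4 arrays. SOY 3, at 7927, lay below the limit of the rule and was kept. Calls are also given without these 4 arrays. As a choice made after the data were seen, results are also given without the 5 arrays of low control signal.

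Long-term restriction held the largest count of changed members. Against CON, 21 of the 101 tested probe sets (19 genes) fell in LTCR and 5 (5 genes) rose. Over all 7357 tested probe sets, 11.8% fell and 7.53% rose. The median difference of the tested members was -0.08, and that of all tested probe sets was 0.00. The 6 deepest falls were those of Srsf3, of the hnRNP genes Hnrnpc, Hnrnpk, Hnrnpr and Hnrnpd, and of Sf3b1 at 1 of its probe sets (97808_at). Without the 4 arrays that carried muscle transcripts, 21 of the 101 members passed, against 15.3% of all tested probe sets. Of the 26, 19 still passed and all 26 kept their sign. The 7 that did not, at adjusted p of 0.0502 to 0.129 (limma), were Ddx24, Hnrnpdl (96084_at), Hnrnph1, Hnrnph2, Sf3b1 (97808_at), Srsf9 and Srsf11. For 16 of the 26 the adjusted p stayed under 0.05 whichever LTCR or CON array was left out. For the other 10, which were Ddx24, Hnrnpdl (96084_at), Hnrnph1, Hnrnph2, Rbm4b, Sf3b1 (97808_at), Snrpb, Snrpg, Srsf9 and Srsf11, it reached 0.0521 to 0.148 without some 1 array.

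Without the 5 arrays of low control signal, LTCR is left with LTCR 3 alone, which is assumed to vary like the other groups. With 1 LTCR array, fewer of the 26 passed in that fit, and all 26 kept their sign. LTCR 3 and CON helped to make these calls, so the kept signs are no separate check. The difference from CON was -1.24 for Srsf3, -1.01 for Rbm39, -0.89 for Hnrnpk, -0.76 for Hnrnpd, -0.68 for Ddx39b and 0.71 for Hnrnph1. Hnrnpc differed by -0.90, Hnrnpr by -0.76, Srsf1 by -0.70 and Srsf5 by -0.56. Sf3b1 differed by -0.06 at 97808_at and -0.20 at 96777_at. Of the 21 probe sets that fell, LTCR 3 was the highest LTCR array for 11 and the lowest for 3, and for 20 it lay below every CON array. LTCR 3 and CON were among the arrays by which these 21 were called, so this count is no separate check of the falls. The part of the low control signal in the falls was not tested beyond this fit.

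**Figure D1:**
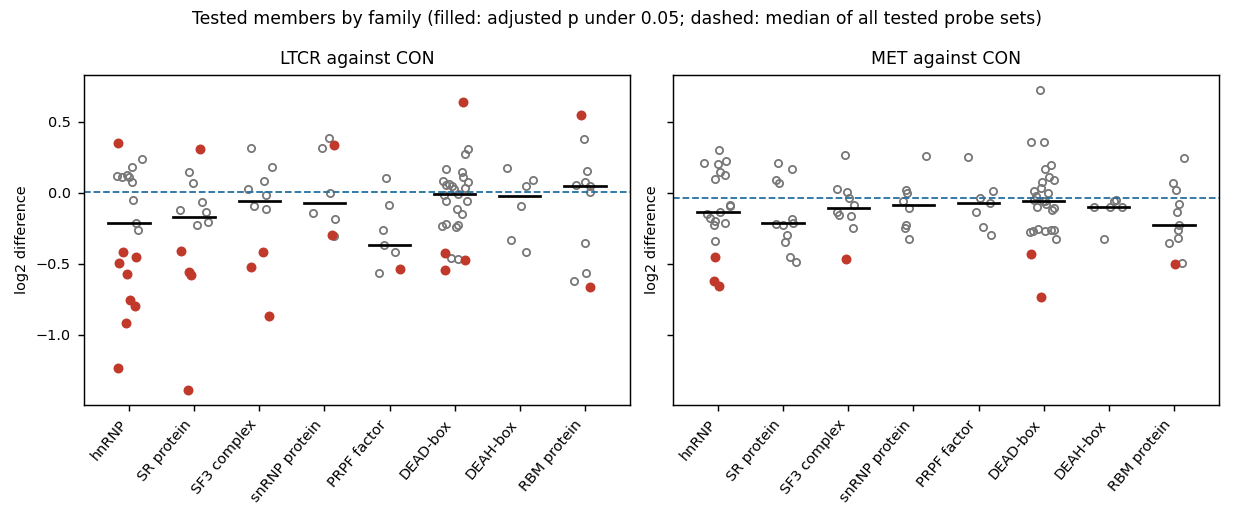
Difference in log2 units of each tested probe set, by family, for LTCR against CON (left) and MET against CON (right); filled points passed the adjusted p, short bars are family medians and the dashed line is the median of all tested probe sets. The hnRNP and SR panels of LTCR hold 8 and 4 filled points below the line, and no filled point lies above it for MET.

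The start regions of 4 genes with large falls, chosen as examples, and of Ddx3x, which rose most, are given. Each runs from 250 bases before to 50 bases after the RefSeq start on the gene's own strand (build GRCm38.p6). Capitals mark the motifs, each searched on both strands. They were CCAAT, which the factor NF-Y reads, GGGCGG, the GC box read by factors of the SP and KLF families, CCGGAA, the core read by factors of the ETS family, CACGTG, the E-box read by many helix-loop-helix factors, and TATAAA, the TATA box near which transcription can start. No search letters were contained in those of another motif. The regions are Srsf3 at chr17:29032410-29032709 (plus strand), Hnrnpc at chr14:52103972-52104271 (minus strand), Hnrnpk at chr13:58402068-58402367 (minus strand), Hnrnpd at chr5:99978889-99979188 (minus strand) and Ddx3x at chrX:13280772-13281071 (plus strand).
Srsf3: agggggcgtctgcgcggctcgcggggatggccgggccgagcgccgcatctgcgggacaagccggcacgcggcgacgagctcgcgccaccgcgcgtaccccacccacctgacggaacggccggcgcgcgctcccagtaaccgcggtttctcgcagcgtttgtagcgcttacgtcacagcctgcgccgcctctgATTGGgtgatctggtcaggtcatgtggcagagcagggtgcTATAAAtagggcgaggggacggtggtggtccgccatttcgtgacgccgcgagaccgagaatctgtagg
Hnrnpc: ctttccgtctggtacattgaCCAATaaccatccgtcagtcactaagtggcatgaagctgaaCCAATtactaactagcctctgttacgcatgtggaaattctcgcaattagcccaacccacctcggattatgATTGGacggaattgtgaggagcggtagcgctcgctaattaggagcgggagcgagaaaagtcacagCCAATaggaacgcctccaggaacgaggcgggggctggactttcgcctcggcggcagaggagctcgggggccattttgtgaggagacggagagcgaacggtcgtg
Hnrnpk: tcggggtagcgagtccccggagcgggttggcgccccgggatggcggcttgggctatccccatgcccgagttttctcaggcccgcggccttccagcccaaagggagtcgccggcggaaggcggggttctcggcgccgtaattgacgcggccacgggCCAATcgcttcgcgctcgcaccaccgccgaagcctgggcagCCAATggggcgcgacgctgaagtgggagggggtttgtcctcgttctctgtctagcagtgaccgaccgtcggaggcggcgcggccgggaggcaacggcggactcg
Hnrnpd: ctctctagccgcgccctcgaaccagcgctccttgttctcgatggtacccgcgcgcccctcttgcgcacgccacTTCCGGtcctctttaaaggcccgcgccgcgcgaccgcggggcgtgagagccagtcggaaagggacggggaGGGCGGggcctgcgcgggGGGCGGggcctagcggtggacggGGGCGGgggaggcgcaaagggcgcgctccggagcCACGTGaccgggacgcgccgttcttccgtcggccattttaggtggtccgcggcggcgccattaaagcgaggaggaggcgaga
Ddx3x: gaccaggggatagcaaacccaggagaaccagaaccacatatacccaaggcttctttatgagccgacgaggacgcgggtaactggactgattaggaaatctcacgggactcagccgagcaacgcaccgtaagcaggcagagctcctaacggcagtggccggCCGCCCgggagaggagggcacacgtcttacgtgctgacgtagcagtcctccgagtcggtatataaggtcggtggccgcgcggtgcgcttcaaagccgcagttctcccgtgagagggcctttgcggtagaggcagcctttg
The Srsf3 region held 1 CCAAT box and 1 TATA box, the Hnrnpc region 4 CCAAT boxes and the Hnrnpk region 2 CCAAT boxes. The Hnrnpd region held 3 GC boxes, 1 ETS core and 1 E-box, with no CCAAT box, and the Ddx3x region held 1 GC box.

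All 19 genes that fell in LTCR matched the promoter table, with 24 start regions, and 83 of the 91 genes of the whole set matched it. The ETS core was in 54.2% of the 24 regions, in 48.9% of the 92 regions of tested members, in 22.9% of the 8409 regions of genes on the array and in 14.9% of all 32851 RefSeq regions. The CCAAT box was in 12 of the 24 regions, 47.8% of the regions of tested members and 37.0% of those of the array. The GC box was in 58.3%, 64.1% and 57.0% of the same 3 sets. The TATA box was in 8.33%, 9.78% and 9.98%, and the E-box in 8.33%, 6.52% and 9.55%. The regions of genes that fell and those of tested members as a whole thus had similar shares of each motif, and the ETS core was in a larger share of both than of the array's genes. Median GC content was 61.0% in the 24 regions and 59.7% in those of the array. A match is a description of the letters in this window, not a binding site.

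Of 19 tested hnRNP probe sets, 8 fell and 1 rose in LTCR. Hnrnpk (94041_at, chromosome 13), which binds C-rich RNA and DNA, read 788, 772, 807 and 758 on the CON arrays and 345, 482, 410 and 382 on the LTCR arrays. All 4 LTCR arrays lay below every CON array, and also below all but MET 3 (473) of the other 24. Its difference from CON was -0.92 (95% CI -1.14 to -0.69, adjusted p = 1.33e-06 by limma). Hnrnpc (160199_at, chromosome 14) packages nascent transcripts and binds U-rich stretches. It read 328, 340, 274 and 239.5 in CON and 83.0, 103, 144 and 113 in LTCR. The groups did not overlap, and the difference was -1.23 (95% CI -1.58 to -0.89, adjusted p = 6.98e-06 by limma).

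Hnrnpr (97491_at, chromosome 4), a close relative of the RNA-binding protein Syncrip, read 359, 448, 439 and 377.5 in CON and 205, 226.5, 227 and 226 in LTCR. The LTCR arrays were far below CON and close to one another, and the difference was -0.80 (adjusted p = 0.000167 by limma). Hnrnpd (94303_at, chromosome 5), also called AUF1 and known for binding AU-rich elements of unstable messenger RNAs, read 520, 737, 577 and 587 in CON and 436, 245, 342.5 and 381 in LTCR. The groups were again apart, with a difference of -0.76 (adjusted p = 0.000247 by limma). Hnrnpa2b1, an abundant hnRNP of the A/B group, fell at both of its probe sets, by 0.49 (93117_at) and 0.45 (93118_at). Hnrnph2, a G-run binder encoded on the X chromosome, fell by 0.57, from a mean of 254 ± 22.8 to 165 ± 36.1 (SD, n = 4). Its near relative Hnrnph1 rose by 0.35, from 921 ± 62.6 to 1194 ± 222 (SD, n = 4). Hnrnph1 read 1518 on LTCR 3 and 1020.5 to 1142 on the other LTCR arrays, and its adjusted p was 0.0673 without LTCR 3. Hnrnpa1 (92724_at), a widely studied splicing repressor, averaged 140 in LTCR and 128 in CON and did not pass (adjusted p = 0.715 by limma).

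Of 12 tested SR probe sets, 4 fell and 1 rose. Srsf3 (101004_f_at, chromosome 17) read 260, 289, 302 and 232 in CON and 72.5, 97.1, 99.0 and 79.8 in LTCR. Every LTCR array was below every other array of the study, the lowest of which was MET 3 at 136. The difference from CON was -1.39 (95% CI -1.76 to -1.01, adjusted p = 4.39e-06 by limma), and on the scale with 27 added the LTCR mean was 38.3% of that of CON. The _f suffix marks probes that may bind members of a sequence family. The other Srsf3 probe set (101003_at) was below the limit and was not tested. It read 68.9, 103, 83.7 and 59.9 in CON and 13.8, 46.0, 47.7 and 59.8 in LTCR, where no array exceeded the lowest CON array.

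Srsf5 (99628_at, chromosome 12), an SR protein first described as induced in regenerating and insulin-treated liver cells, read 2101, 2311, 1943 and 2530 in CON and 1632, 1262, 1490 and 1523 in LTCR. The groups did not overlap and the difference was -0.58 (adjusted p = 0.000493 by limma). Srsf1 (104586_at), the founding SR protein, fell by 0.56, from 234 ± 31.5 to 149 ± 12.4 (SD, n = 4), while its second tested probe set differed by -0.23 and did not pass. Srsf11 fell by 0.41, although LTCR 3 (924.5) lay above the lowest CON array (841) and its adjusted p was 0.0666 without the arrays that carried muscle transcripts. Srsf9 (96834_at) rose by 0.31, at an adjusted p of 0.0449 that became 0.129 without those arrays. Srsf2, which binds purine- and pyrimidine-containing exonic enhancers, differed by 0.07 and -0.07 at its probe sets and did not pass.

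**Figure D2:**
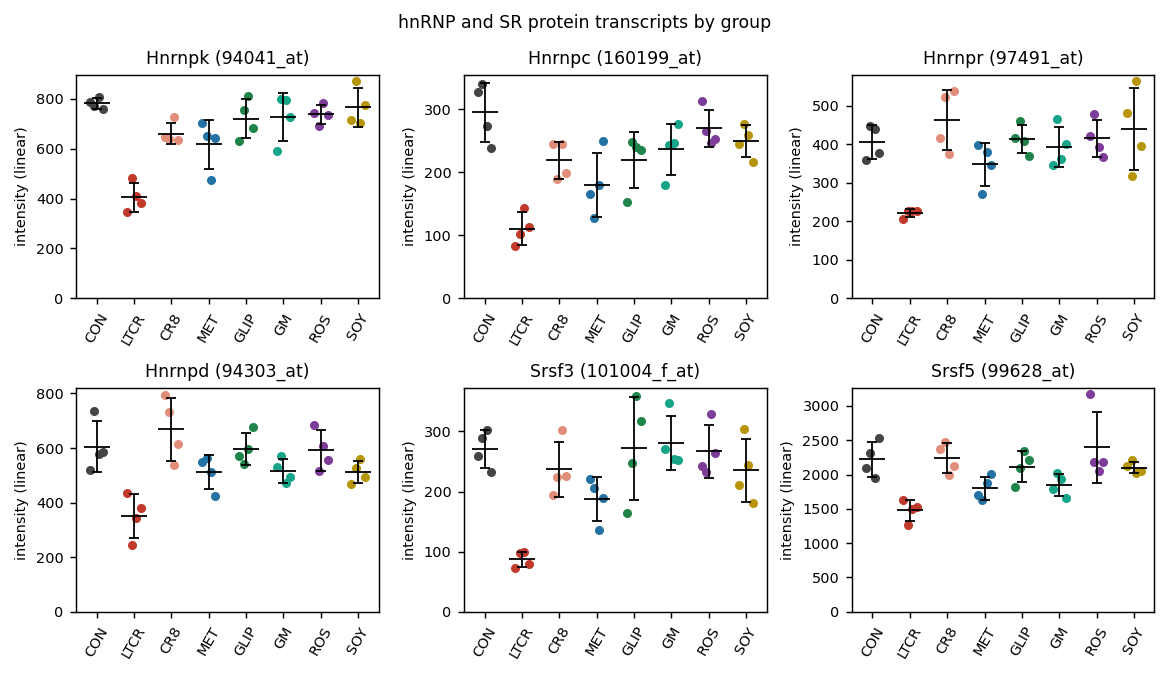
Intensity on a linear axis from 0 for 4 hnRNP and 2 SR transcripts in the 8 groups; points are the 4 arrays of a group, and bars are the mean ± SD. For Hnrnpk and Srsf3 the LTCR arrays, at 345 to 482 and at 72.5 to 99.0, sit below all 4 CON arrays, while the CR8 arrays of Srsf3, at 195 to 302, overlap those of CON.

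Among core components of the spliceosome, 30% of the tested SF3, 25% of the snRNP and 14.3% of the PRPF probe sets passed in LTCR. Over all tested probe sets 19.3% passed, of which 11.8% fell and 7.53% rose. Of 10 tested SF3 probe sets 3 fell, all of them for Sf3b1 and Sf3b6, subunits of the complex that holds the branch point. Sf3b1 (96777_at, chromosome 1) read 446, 378, 426 and 384 in CON and 237, 252, 352 and 276 in LTCR, a difference of -0.52 (adjusted p = 0.000918 by limma). Sf3b6 (95714_at) fell by 0.42, from 790 ± 20.8 to 588 ± 68.1 (SD, n = 4). Of 8 tested snRNP probe sets 1 fell and 1 rose. Snrpg, a protein of the Sm ring shared by most spliceosomal snRNPs, fell by 0.30, and its fellow ring protein Snrpb (160555_r_at) rose by 0.34. The Snrpb rise was 0.22 after quantile normalization and no longer passed (adjusted p = 0.0635 by limma), and the Snrpg fall did not pass with LTCR and CON fitted alone (adjusted p = 0.0918 by limma). 

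Of 7 tested PRPF probe sets, 6 had negative differences and 1 passed. Prpf38b (97919_at), which is related to a spliceosome activation factor of yeast, read 344, 327, 389 and 339 in CON and 257, 233, 258 and 189 in LTCR, a difference of -0.53 (adjusted p = 0.00099 by limma). Prpf8 (98574_at), the large protein at the catalytic centre, averaged 1356 in LTCR and 1619 in CON and did not pass (adjusted p = 0.0888). Prpf19, a ubiquitin ligase of the activated spliceosome, had differences of -0.37 and -0.42 at its probe sets, with adjusted p of 0.0526 and 0.111 (limma).

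Of 28 tested DEAD-box probe sets, 3 fell and 1 rose, and none of 6 tested DEAH-box probe sets passed. The DEAD-box share, 14.3%, lay below the 19.3% of all tested probe sets that passed. Ddx17 (162424_f_at, chromosome 15), a helicase and transcriptional coregulator, fell by 0.55, from readings of 394, 505, 448 and 478.5 in CON to 253.5, 328.5, 352 and 287 in LTCR. Ddx39b (160384_at), which couples splicing to export, fell by 0.42, and Ddx24 (99096_at) fell by 0.47. Ddx3x (93309_at), an X-linked helicase of translation initiation, read 620.5, 415.5, 536 and 399.5 in CON and 663, 823, 707 and 923 in LTCR. This was the largest rise among the members, 0.64 (95% CI 0.32 to 0.96, adjusted p = 0.00354 by limma). Its other tested probe set (101542_f_at) pointed the other way, at -0.22, and did not pass. Ddx5 (93493_at), a paralogue of Ddx17, averaged 910 in LTCR and 1076 in CON and did not pass (adjusted p = 0.117). Dhx9 averaged 325 in LTCR and 306 in CON.

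Of 11 tested RBM probe sets, 1 fell and 1 rose. This share, 18.2%, was near the 19.3% of all tested probe sets that passed. Rbm39 (93267_at, chromosome 2), a splicing factor related to the U2AF large subunit, read 736, 525, 612 and 485 in CON and 348, 393, 276 and 431 in LTCR, a difference of -0.66 (adjusted p = 0.00106 by limma). Its other tested probe set had a difference of -0.56 that did not pass (adjusted p = 0.139). Rbm4b (100547_at), one of a closely related gene pair that regulates alternative exons, rose by 0.55, from 834, 744, 760 and 463 to 1104, 994, 986 and 973. CON 4 was the lowest CON array, and without it the rise was 0.37 with an adjusted p of 0.103 (limma).

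Several genes were measured by more than 1 tested probe set, which gives a check within the array. There were 19 such genes. In LTCR against CON, the probe sets of 10 had the same sign and those of 9 did not. At least 1 probe set passed for 8 genes, and for 2 of these, Hnrnpa2b1 and Sf3b1, all passed in the same direction. For 3 genes, Ddx3x, Ddx24 and Hnrnpdl, a probe set that passed stood beside one of the opposite sign. Hnrnpdl, a relative of Hnrnpd, fell by 0.41 at 96084_at and had a difference of 0.24 at 96083_s_at that did not pass (adjusted p = 0.0764). Whether the probe sets of these genes read different transcript forms was not tested.

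**Figure D3:**
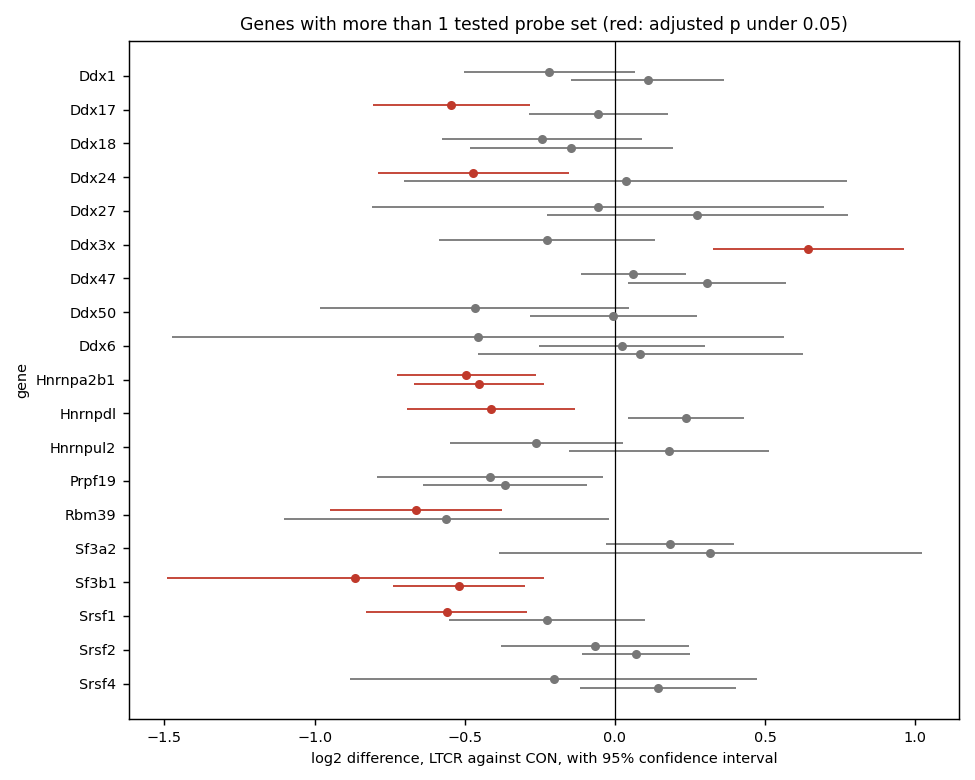
Difference in log2 units between LTCR and CON, with its 95% confidence interval, for each tested probe set of the 19 genes that have more than 1; red marks an adjusted p under 0.05. The intervals of the Ddx3x probe sets, 0.32 to 0.96 and -0.58 to 0.13, do not overlap, whereas both Hnrnpa2b1 probe sets lie below 0.

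Other genes of RNA processing that the symbol rule does not reach were read from lists. Of 63 tested splicing factors and regulators outside the rule, 9 fell and 4 rose in LTCR, with a list median of -0.07. Over all tested probe sets 11.8% fell and 7.53% rose, so these counts are near the background. Ik, also known as RED, a spliceosomal protein, read 295, 274, 328.5 and 221 in CON and 132, 173, 203.5 and 131 in LTCR, a difference of -0.72 (adjusted p = 0.000311 by limma). Smndc1, also called SPF30, which acts in spliceosome assembly, fell by 0.54 and Tial1, a regulator of splicing and translation, rose by 0.47. Of 9 tested splicing kinases and phosphatases 1 rose and 1 fell. Of 18 genes of 3' end processing and export 2 rose and 1 fell, and of 17 genes of decay and stability 2 rose and 2 fell. Of 16 genes of nucleolar RNA processing 2 rose, the abundant nucleolar proteins Ncl (0.45) and Npm1 (0.36), and none fell.

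Markers of other liver cells were measured beside these falls. The summed intensity of 9 Kupffer cell and macrophage genes was 3374 to 4524 on the CON arrays and 2031 to 2996 on the LTCR arrays, with 1 of 8 tested genes lower and none higher. It was 2036 to 3331 in CR8. Its part in the falls was not tested. The 5 stellate and endothelial genes summed to 1135 to 1292 in CON and 984 to 1361 in LTCR, and none passed. Of the 5 hepatocyte genes 4 rose and 1 fell in LTCR. Of 2 erythroid genes 1 fell, and their sum was 6993 to 13057 in CON and 6630 to 11878 in LTCR. The part of these shifts was not tested.

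Under short-term restriction no member passed the threshold. In CR8 against CON 0 of 101 passed by limma, against 0.544% of all tested probe sets, and 12 had an unadjusted p under 0.05, as did 11.6% of all tested probe sets. The smallest p was that of Rbm14 (100138_f_at), a coactivator of transcription and splicing, which read 212.5, 169, 221 and 184 in CON and 105.5, 134.5, 146 and 121 in CR8. The arrays did not overlap, and the difference was -0.54 (95% CI -0.84 to -0.25, adjusted p = 0.0774). Next came Srsf2 (94017_s_at), with a difference of 0.29 (adjusted p = 0.126 by limma). Without CON 3 that difference was 0.37 and passed, at an adjusted p of 0.0304.

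The test of LTCR against CR8 asks whether lifelong restriction differed from 8 weeks of it, and both groups ended on the same energy intake. LTCR began at 5 months of age and CR8 at 20 months, so duration and age at onset cannot be told apart. In LTCR 20 of the 101 members (19 genes) were lower than in CR8 and 1 was higher, against 7.34% and 4.65% of all tested probe sets. Srsf3 read 195, 224, 302 and 226 on the CR8 arrays, all above the LTCR arrays, a difference of -1.20 (95% CI -1.57 to -0.83, adjusted p = 8.49e-05 by limma). Hnrnpr read 417, 522, 376 and 537 in CR8, a difference of -0.97 (adjusted p = 5.16e-05). Hnrnpd read 793, 731, 538 and 613 in CR8, a difference of -0.89 (adjusted p = 9.68e-05). For these 3 genes LTCR was apart from CR8 on every array. Hnrnpc differed by -0.85, Hnrnpk by -0.68 and Hnrnpdl (96084_at) by -0.61, and Srsf5 by -0.59. Prpf8 was lower in LTCR than in CR8 by 0.48, with means of 1356 ± 207 and 1894 ± 97.3 (SD, n = 4), and Ddx5 by 0.36 (adjusted p = 0.0887 without LTCR 4). The member that was higher in LTCR was Rbm14, by 0.54 (adjusted p = 0.013), with readings of 164, 225, 193.5 and 208 in LTCR. The LTCR and CON means of Rbm14 were 197.5 and 197, so its CR8 arrays were the ones that stood apart. Without the arrays that carried muscle transcripts, 15 of the 21 still passed, where 5.98% of all tested probe sets passed. The other 6 were Ddx5, Hnrnpa2b1 (93118_at), Prpf8, Rbm14, Rbm17 and Snrpe, at adjusted p of 0.0573 to 0.19 (limma). Without the arrays of low control signal, LTCR is left with LTCR 3 alone. Fewer of the 21 passed in that fit, and all 21 kept their sign. Its LTCR and CR8 arrays were among those by which the 21 were called, so the kept signs are no separate check.

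The 2 contrasts share the LTCR arrays, and LTCR and CR8 are each set against the same CON arrays, so their values are given side by side. Hnrnpk differed from CON by -0.92 in LTCR and -0.24 in CR8, Srsf3 by -1.39 and -0.19, and Hnrnpc by -1.23 and -0.38. Hnrnpr differed by -0.80 in LTCR and 0.17 in CR8, and Hnrnpd by -0.76 and 0.14. For Hnrnpk the CR8 arrays, at 645, 637, 725 and 634, were all below CON and above LTCR.

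**Figure D4:**
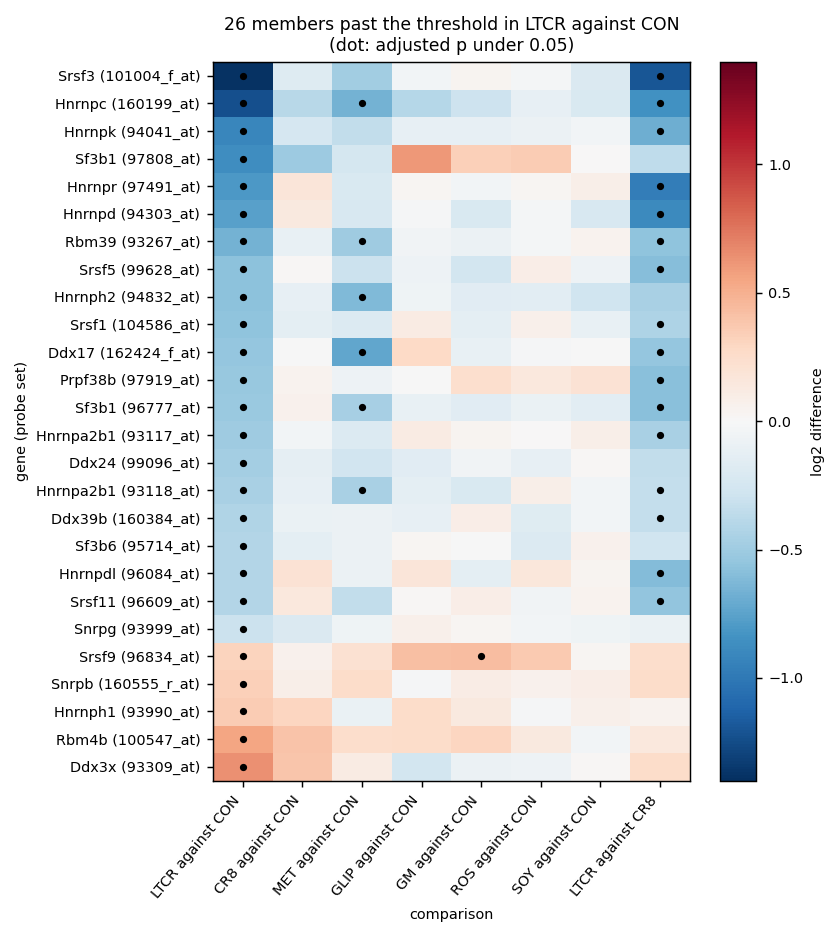
Difference in log2 units (blue lower, red higher in the first group) of the 26 probe sets that passed in LTCR against CON, in all 8 comparisons; a dot marks an adjusted p under 0.05. Apart from both LTCR columns, dots stand only in the MET column and for Srsf9 in GM. The rows were chosen by the first column, which shares its LTCR arrays with the last one and its CON arrays with the 6 between.

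Metformin was the mimetic with members past the threshold in more than 1 gene. In MET against CON 7 of 101 probe sets (6 genes) fell and 0 rose, against 2.34% and 1.83% of all tested probe sets. With all arrays set to equal medians the members' counts were 3 and 0, while over all probe sets 65 fell and 191 rose, against 172 and 135 as deposited. Ddx17 fell at both probe sets. At 162424_f_at it read 319, 293, 219 and 233 in MET, below all 4 CON arrays (394 to 505), a difference of -0.73 (95% CI -0.99 to -0.47, adjusted p = 0.00219 by limma). At 101962_at it read 1081, 882, 841 and 989.5 in MET and 1425, 1203, 1376 and 1131 in CON, a difference of -0.43 (adjusted p = 0.0286). In LTCR the first of these probe sets differed by -0.55 and the second read 1040 to 1316, which overlaps CON.

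The others that fell in MET were Hnrnpc (-0.66), Hnrnph2 (-0.62), Rbm39 (-0.50), Sf3b1 at 96777_at (-0.47) and Hnrnpa2b1 at 93118_at (-0.45). Hnrnph2 read 155, 152.5, 149.5 and 166 in MET against 223 to 273 in CON. Sf3b1 read 312.5, 313, 253 and 275 in MET against 378 to 446 in CON. Both were apart from CON on every array, whereas MET 4 of Hnrnpc (249) was above the lowest CON array. None of the 12 tested SR probe sets passed in MET: Srsf3 read 220.5, 206, 136 and 189 and differed from CON by -0.48 (adjusted p = 0.136 by limma). Hnrnpk differed by -0.34 (adjusted p = 0.0775). The count of 7 in MET was 1 without the arrays that carried muscle transcripts, where 1.67% of all tested probe sets passed in either direction. It was also 1 without CON 1. Without the arrays of low control signal it was 4, where 3.43% of all tested probe sets passed in either direction. In the fits without muscle arrays and without low control arrays, 1 and 4 of 101 members were thus near the background share. The Ddx17 probe set 162424_f_at passed whichever single MET or CON array was left out. The summed intensity of the 9 Kupffer cell and macrophage genes was 3674 to 5612 in MET, against 3374 to 4524 in CON, and its part in these falls was not tested.

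In the remaining groups there was little beyond the threshold. Combined glipizide and metformin (GM) raised 1 of 101 members and lowered none, against 0.87% and 0.68% of all tested probe sets (64 and 50 as deposited, 413 and 19 with equal medians). This was Srsf9, which read 892, 935.5, 753 and 790 in GM and 708, 658, 557 and 560 in CON, a difference of 0.43 (adjusted p = 0.042 by limma). That call was lost when any of 6 single arrays was left out, and without the arrays that carried muscle transcripts (adjusted p = 0.0978). Srsf9 also read 787 to 850 in GLIP and 731 to 871 in ROS, above all 4 CON arrays, with differences of 0.42 and 0.36 that did not pass (adjusted p = 0.162 and 0.236). Ddx1 (161386_f_at), a helicase of transfer RNA ligation, differed by -0.51 in GM (adjusted p = 0.0545).

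Glipizide alone (GLIP) and rosiglitazone (ROS) each had 0 of 101 members past the threshold by limma, where 0.136% of all tested probe sets passed in GLIP and 0.136% in ROS. At an unadjusted p under 0.05 there were 17 of 101 members in GLIP and 8 in ROS, against 9.37% and 8.41% of all tested probe sets. In GLIP the smallest p were those of Ddx6 (93965_r_at), a helicase of messenger RNA storage and decay, and Dhx36, which unwinds G-quadruplexes, with differences of 1.08 and 0.84 (adjusted p = 0.129 and 0.162). In ROS they were those of Hnrnpab (0.39, adjusted p = 0.172) and Rbm14 (-0.49, adjusted p = 0.221). Soy isoflavones (SOY) also gave 0 of 101 by limma, against 0% of all tested probe sets, with 7 members, and 8.17% of all, at an unadjusted p under 0.05. The smallest p in SOY were those of Hnrnpll, a regulator of exon choice in lymphocytes (0.50), and Prpf19 at 162235_f_at (-0.56), both at an adjusted p of 0.391.

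Over all 8 groups together, the moderated F test found a difference in 36 of the 101 members (31 genes), or 35.6%, against 27% of all tested probe sets. By family the count was 11 of 19 for hnRNPs, 6 of 12 for SR proteins, 3 of 10 for SF3, 2 of 8 for snRNP proteins, 3 of 7 for PRPF factors, 8 of 28 for DEAD-box, 1 of 6 for DEAH-box and 2 of 11 for RBM proteins. The 6 smallest p were those of Hnrnpk, Srsf3, Ddx17 (162424_f_at), Hnrnpc, Hnrnpr and Prpf38b, with adjusted p from 9.83e-06 to 0.000201 (limma). Not all of these 6 passed in every setting run. Without the arrays of low control signal, where LTCR is left with LTCR 3 alone, fewer members passed the F test.

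Some members varied widely between arrays of 1 group. Ddx6 at 93964_s_at read 208, 94.0, 183 and 211 in CON, 633.5, 703, 678 and 625 in GLIP, and 191, 872, 694 and 916 in ROS. ROS 1 thus sat with CON while the other ROS arrays sat with GLIP. In MET it read 582, 570 and 225 on arrays 1, 2 and 4 and 88.9 on array 3. The third Ddx6 probe set (96731_at) read 606 to 707 in GLIP and 471 to 812.5 in CON, without that split.

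Sf3b1 at 97808_at behaved in a like manner. It read 528, 495, 520 and 517 in CON, 241.5, 189, 494.5 and 233 in LTCR, 504, 556, 142 and 372 in CR8, and 574, 728, 188 and 419 in MET. LTCR 3 was near CON and was also the highest LTCR array of the other Sf3b1 probe set (352), and the lowest arrays were CR8 3, MET 3 and LTCR 2. The array's control probe set for the 3' end of beta-actin was 10198 to 12617 in CON. It was 5438, 3845, 10903 and 4998 in LTCR, 1671 on CR8 3 and 3971 on MET 3, so the same arrays were low. The fall of this probe set in LTCR, -0.86, passed at an adjusted p of 0.0461 and was lost when any of 7 single arrays was left out. Without the 5 arrays of low control signal it was -0.06 (adjusted p = 0.957 by limma).

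**Figure D5:**
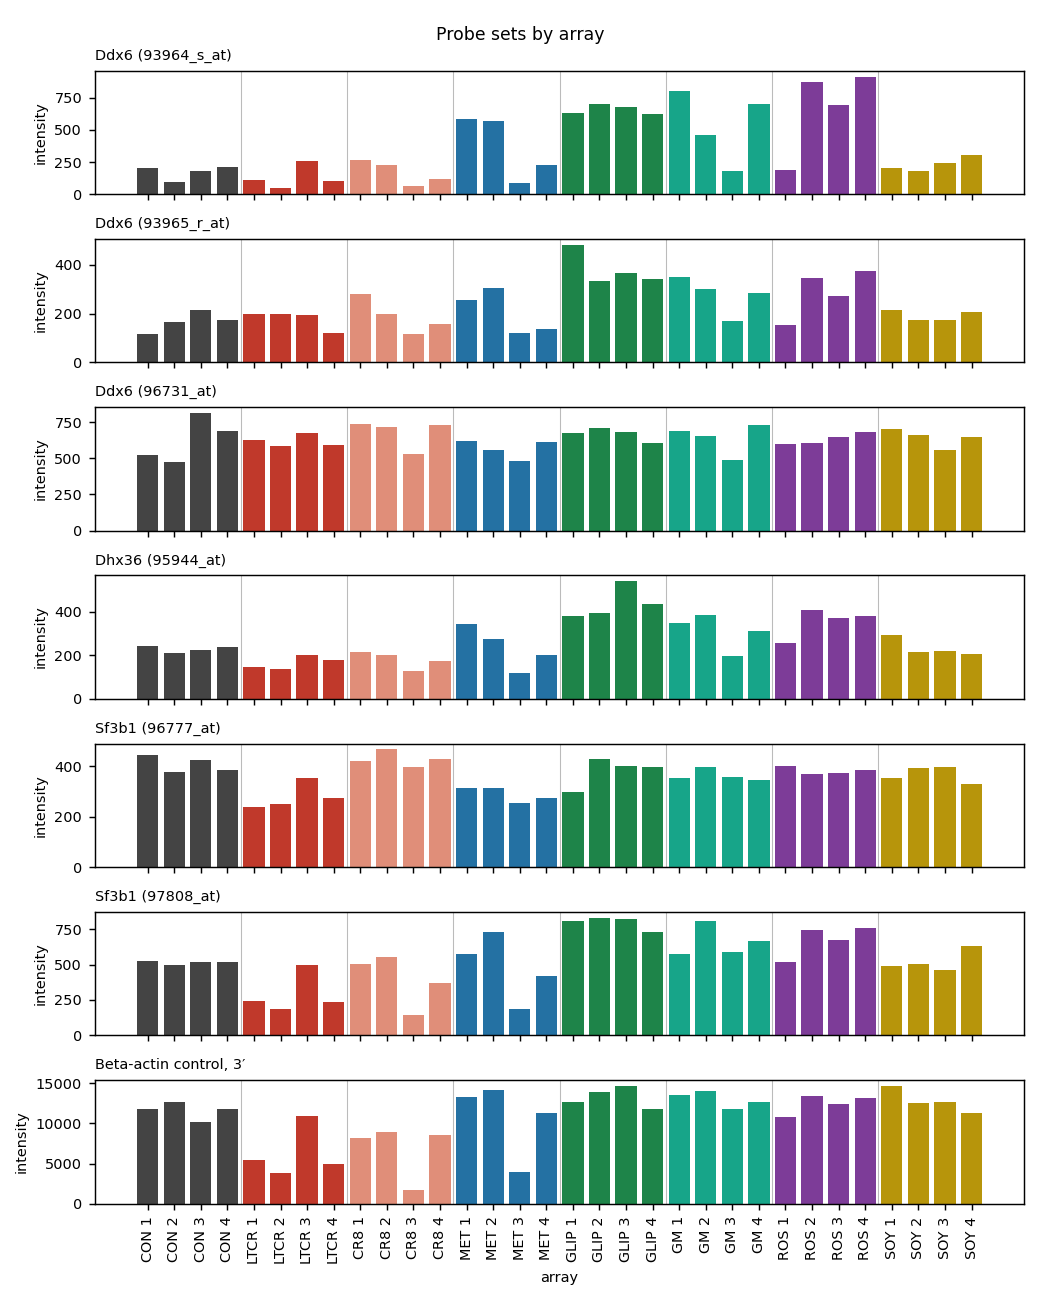
Intensity on linear axes from 0 for 6 probe sets and the beta-actin 3' control on each of the 32 arrays, coloured by group. Sf3b1 (97808_at) and the control are both low on LTCR 1, LTCR 2, LTCR 4, CR8 3 and MET 3, while Ddx6 (96731_at) stays between 471 and 812.5 throughout.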

How the data were processed

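RNA from 32 mouse livers was hybridised to 32 MG-U74Av2 arrays. The authors deposited 1 intensity per probe set and array on a linear scale. The software that made the values is not given in the sources used here. Each column's mean without its outer 2% at each end was 500.4 to 500.5, so the arrays had been scaled alike. Gene names came from the platform annotation, and all 127 members matched RefSeq by gene ID. Promoters were taken from RefSeq (GRCm38.p6).

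Intensities were turned into log2(intensity + 27), where 27 is the 20th percentile of all values. Probe sets whose mean log2 value, turned back to an intensity, was above the 40th percentile of all values (94.2) were tested, 7357 in all. One limma fit (3.58.1, R 4.3.3) held all 8 groups without covariates, with a trended prior, 24 residual degrees of freedom and Benjamini-Hochberg adjustment over all tested probe sets. It was tested on simulated data. The number of arrays, 4 per group, limits the precision. Labels give 1 array per mouse.

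Named genes were, per comparison, up to 6 rises and 6 falls past the threshold without overlap of arrays, or the 2 smallest p where fewer than 3 passed; the 6 smallest p of the F test; 3 genes outside the rule; and a short list of well-known members. Other members are named in the text to complete a family and were chosen after their values were seen. Members and lists were chosen with earlier results of these data known. Normalization, added value, filter, samples fitted, replicate block and each array left out were varied. For a comparison of 2 groups, the arrays left out 1 at a time were those of its own groups. A fit without the 5 arrays whose beta-actin control was under 0.5 of the median array was added after the data were seen.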

Additional observations from a re-analysis of the deposited data

Results flagged for a closer look

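In 4 of 109 groups of 4 arrays checked, 1 array lay far from the others by Dixon's ratio, a test that chance alone passes in about 5% of groups. Hnrnpa2b1 (93117_at) read 1740 on CON 2 and 1914.5 to 1926 on the other CON arrays (ratio 0.942). Hnrnpr (97491_at) read 205 on LTCR 1 and 226 to 227 on the others (0.939). Rbm4b (100547_at) read 1104 on LTCR 1 and 973 to 994 on the others (0.83). Hnrnpk (94041_at) read 725 on CR8 3 and 634 to 645 on the others (0.875).

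For 21 probe sets the limma test of LTCR against CR8 found that the difference from CON was not the same under long-term and short-term restriction. The 6 largest falls and the 1 rise among them are given. The long-term difference minus the short-term one was 0.545 for Rbm14, -1.20 for Srsf3, -0.969 for Hnrnpr, -0.892 for Hnrnpd, -0.849 for Hnrnpc, -0.679 for Hnrnpk and -0.611 for Hnrnpdl, in log2 units.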

How the results depend on the processing

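In LTCR against CON the count of 26 members ranged from 20 to 27 over the other planned settings and from 21 to 29 with 1 array left out, and 16 of the 26 probe sets passed in every planned setting that tested them. In LTCR against CR8 the count of 21 was 13 when only those groups were fitted, 15 to 21 with 1 array left out, and 11 probe sets passed in every planned setting that tested them. The F test count of 36 was 29 to 40 over the other planned settings and 32 to 37 with 1 array left out. In MET the count of 7 was 3 with equal medians, 1 without the arrays with muscle transcripts and 0 when MET and CON were fitted alone; with 1 array left out it was 1 to 7 (1 without CON 1, 4 without CON 3, 3 without MET 2 and 3 without MET 3). In GM the 1 call became 0 without a filter, with the replicate block, without the arrays with muscle transcripts and in the fit to those groups alone, and was 0 to 1 with 1 array left out (without GM 2 the 1 call was the fall of Ddx1, not Srsf9). GLIP had 3 calls when fitted with CON alone (Ddx6 at 93964_s_at, Dhx36 and Sf3b1 at 97808_at). In that fit 9 of all 7357 tested probe sets passed. GLIP had 0 calls with any 1 array left out, and CR8 had 0 to 1. ROS and SOY stayed at 0 throughout. A further setting, chosen after the data were seen, left out the 5 arrays of low beta-actin control. There 4 members passed in MET, against 3.43% of all tested probe sets, and 2 in GLIP, against 0.299%. The F test count was lower there than in any other setting run. LTCR was left with LTCR 3 alone. Its median difference from CON was -0.015 for the tested members and 0.008 for all tested probe sets. Against CR8 these medians were -0.053 and 0.007.

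Replicate numbers did not pair the mice: correlations of same-numbered deviations were -0.174 to 0.172, with at most 1 of 4 pairs over 0.1 in a comparison. With the replicate number as a block, 26 members passed in LTCR, 6 in MET, 20 in LTCR against CR8 and 33 in the F test. Equal medians moved the median of all probe sets by 0.136 in GM, 0.109 in SOY and 0.0339 in LTCR, and gave all tested probe sets a split of 191 higher and 65 lower in MET and 413 and 19 in GM, against 135 and 172, and 64 and 50, as deposited. No member that passed changed sign in any setting run.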
